A study of Homo sapiens with 6 samples.

Results

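A set of 42 genes of the DNA replication machinery was followed in Mum-2b cells, an established human line labelled uveal melanoma, after knockdown of NELFCD. The genes were taken by symbol, and each matched 1 of the 58735 rows of the deposited count table. They comprise 4 origin licensing genes, 12 genes of the replicative helicase and its activators, 7 polymerase and primase subunits and 5 genes of the sliding clamp and its loader. The others are 3 genes of Okazaki fragment processing and single-strand binding, 4 of nucleotide supply, 4 of chromatin at the fork, and 3 of S phase entry and CDT1 turnover. RNA-seq was done on 3 control libraries, labelled wild type, and 3 libraries of cells carrying a short hairpin RNA (shRNA) against NELFCD, all named for the same hairpin. No time after transduction is given in the labels. NELFCD codes for a subunit of the negative elongation factor, a complex that pauses RNA polymerase II soon after it starts a transcript. Because only 1 hairpin was used, effects of losing the target and effects of the hairpin on other transcripts cannot be told apart.

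Replication begins with licensing, when the origin recognition complex, CDC6 and CDT1 load the ring of MCM2 to MCM7 onto DNA in G1. In S phase, CDC45 and the GINS complex join the ring to form the active helicase, polymerase alpha with primase starts each strand, and polymerases epsilon and delta extend them on the PCNA clamp. Most of these genes are transcribed around the entry into S phase under E2F transcription factors, so their mRNA level tends to follow the share of cycling cells in a culture. In bulk RNA, fewer cells in S phase and less of these mRNAs per cell cannot be told apart.

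Because E2F sites are a known feature of this gene class, the promoters of 4 genes that fell in the comparison below are shown first. Only genes with E2F matches and exon-free bases could be chosen, so a match in each was fixed by the choice. Of the 10 genes that fell and had a RefSeq promoter, 6 had an E2F match. The printed windows are RefSeq sequences of GRCh38.p14, read 5′ to 3′ on the strand of the gene. They are limited to bases outside the annotated exons of the gene itself. Capitals mark matches to 4 E2F words (TTTCCCGC, TTTCGCGC, TTTGCCGC and TTTGGCGC) on either strand. UHRF1 and MCM3 carry a word on the printed strand, PCNA carries one on the other strand, and MCM6 carries words on both.
MCM6 (chr2:135876444-135876605, minus strand): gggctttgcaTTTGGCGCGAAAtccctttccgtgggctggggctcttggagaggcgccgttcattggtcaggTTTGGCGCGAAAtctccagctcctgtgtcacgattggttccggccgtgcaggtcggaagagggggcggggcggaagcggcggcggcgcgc
UHRF1 (chr19:4909974-4910143, plus strand): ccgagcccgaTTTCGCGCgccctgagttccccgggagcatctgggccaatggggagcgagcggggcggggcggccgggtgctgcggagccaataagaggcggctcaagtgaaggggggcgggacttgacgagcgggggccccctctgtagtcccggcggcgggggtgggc
PCNA (chr20:5126627-5126742, minus strand): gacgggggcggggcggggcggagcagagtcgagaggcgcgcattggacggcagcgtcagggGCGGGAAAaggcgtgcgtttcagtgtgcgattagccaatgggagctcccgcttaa
MCM3 (chr6:52284882-52284926, minus strand): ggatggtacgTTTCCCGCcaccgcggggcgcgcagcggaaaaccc
In the MCM6 window, 2 blocks each hold TTTGGCGC overlapping TTTCGCGC of the opposite strand, which were counted as 4 matches. The UHRF1 match begins 160 bases before the start used for that gene, the PCNA match 59 bases and the MCM3 match 174 bases. UHRF1 has 3 RefSeq starts and PCNA 2, and a start with a match was used for each. Another start of each had no match. The MCM3 window stops 139 bases short of its start, and the PCNA window 4 bases short.

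RefSeq promoters were found for 36 of the 42 genes, with 46 starts in all, and the 250 bases before each start were searched. An E2F word occurred in 15 of the 46 windows (32.6%), against 979 of 35116 windows in the whole table (2.79%). Counted by gene, 14 of 36 replication genes had one (38.9%), against 928 of 27305 genes (3.40%). Among the genes that fell in the comparison below, 7 of 17 windows had a match (41.2%), and among those that were not called, 8 of 29 (27.6%). The shorter word CCAAT, on either strand, was found in 27 of the 46 windows (58.7%) and in 32.0% of all windows. The word TTTGAA, the core of an element known from promoters active in G2 and mitosis, was found in 1 of the 46 windows (2.17%) and in 13.3% of all. A match is a run of letters, and no factor binding was measured.

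The libraries held 14306733 to 16656630 counts, and the 42 genes had between 60 counts (CCNE1 in knockdown 3) and 11015 counts (MCM4 in control 3) in 1 library. NELFCD itself stood at 65.5, 88.3 and 83.5 CPM (counts scaled to library size) in control libraries 1 to 3 and at 20.7, 37.4 and 40.3 CPM in the knockdown libraries, so every knockdown library was below every control library. With the replicate number as a block, NELFCD fell by 1.30 on the log2 scale (SE 0.109, edgeR adjusted p = 0.00046), and the other subunits NELFA (-0.02), NELFB (-0.14) and NELFE (0.14) were not called. The labels give uveal melanoma, but the 10 melanocyte markers summed to only 7.93 to 18.8 CPM per library, with OCA2 at 0 in all 6 and TYR at 0 in 5. Of the 10, 3 had enough counts to be tested, and the highest single value among the 10 was 9.17 CPM. Fibroblast markers (8 genes) summed to 1.21 to 2.55 CPM and leukocyte markers (7 genes) to 0.266 to 1.06 CPM. Library 1 of each group stood apart from libraries 2 and 3. The first principal component held 66.5% of the variance. Control 1 differed from control 2 with a chi-square of 114 per degree of freedom, against 2.22 between controls 2 and 3. For knockdowns 1 and 2 it was 111, against 2.06 between knockdowns 2 and 3.

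The 42 genes moved with that split. They made up 0.192% of all counts in control 1 and 0.148% in knockdown 1, against 0.552% and 0.557% in controls 2 and 3 and 0.498% and 0.496% in knockdowns 2 and 3. In a model with the group, 41 of the 42 were lower in replicate 1 than in replicates 2 and 3 (edgeR, adjusted p under 0.05), where 30.2% of all genes tested were lower and 31.6% were higher. The median level in replicate 1 was 33.5% of that in the other two replicates. GINS2, a subunit of the GINS complex, was the lowest at 13.98%, followed by MCM10 at 17.7% and RRM2 at 18.4%. CCNE1, the gene of cyclin E1, was the exception at 108%, and CDT1 was the next at 61.8%. All 20 mitosis and G2/M genes were likewise lower in replicate 1, with a median of 38.6%. The labels name 2 RNA extraction kits without assigning them, so kit, culture and day cannot be told apart here. The comparison of knockdown and control is therefore given without and with the replicate number as a block, for replicates 2 and 3 alone, and for each same-numbered pair.

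**Figure D1:**
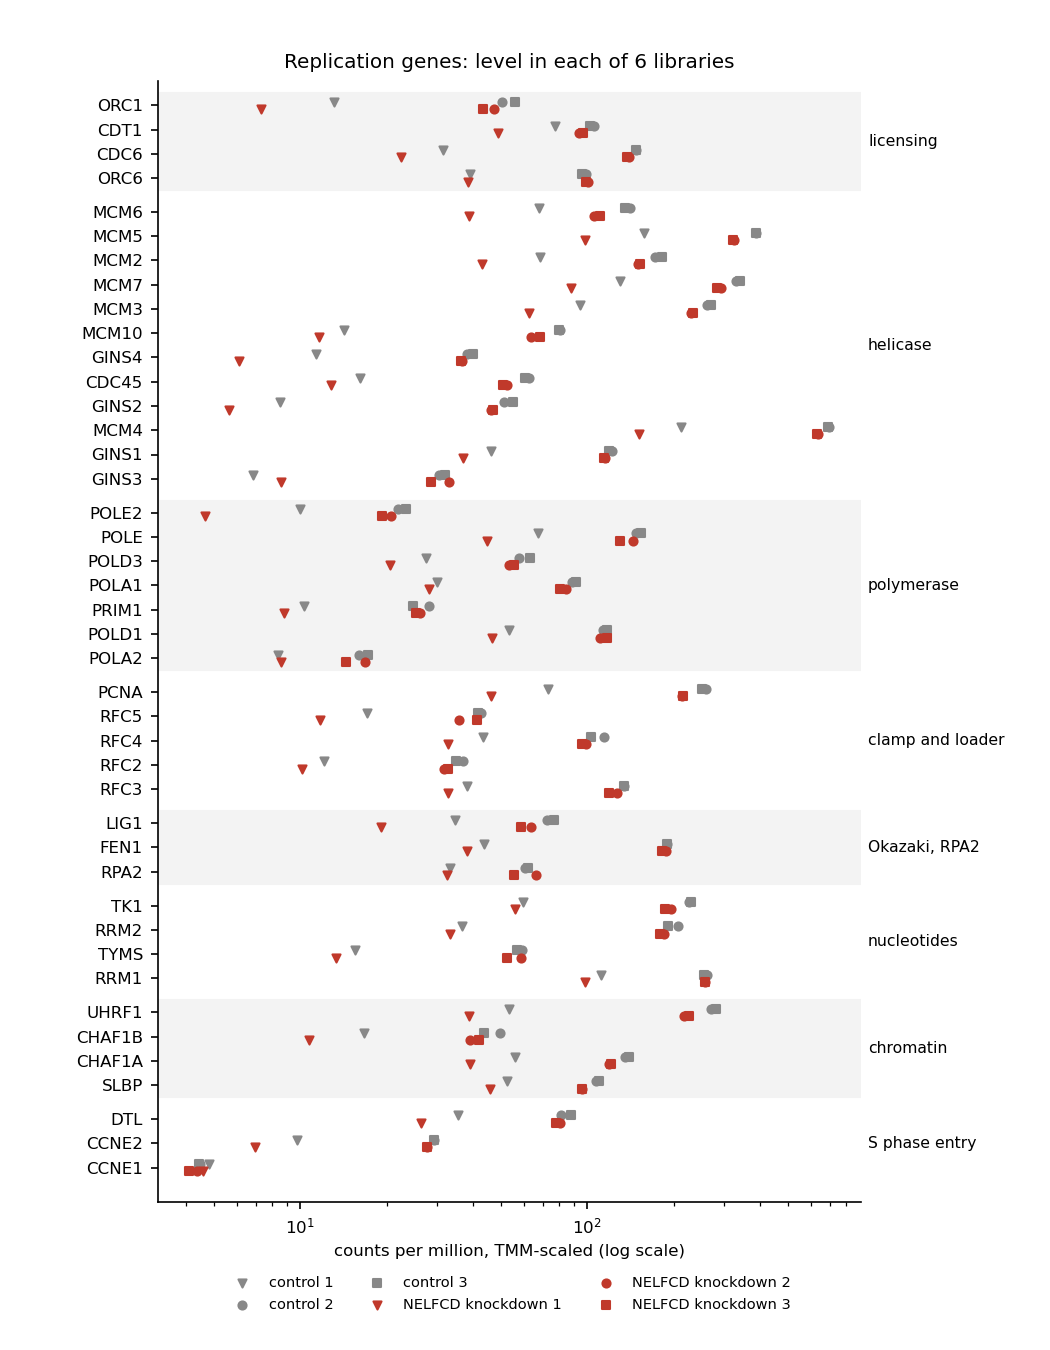
Level of each of the 42 genes in 6 libraries, in CPM on a log axis, with genes in rows by role and grey (control) and red (knockdown) symbols for libraries 1 (triangles), 2 (circles) and 3 (squares). For 41 genes both triangles lie left of the other symbols, CCNE1 being the exception, and within each number the red symbol mostly lies left of the grey one.

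Across the set, the knockdown libraries were slightly lower than their same-numbered controls. The genes that passed the test with the block were MCM2, MCM3, MCM5, MCM6, MCM7, MCM10, CDC45, PCNA, LIG1, UHRF1 and CHAF1A. POLE2 (-0.40) and ORC1 (-0.37) had estimates of like size but did not pass. Without the block, edgeR called 0 of 14844 genes (0% of those tested) and 0 of the 42. At an unadjusted p under 0.05 that fit held 954 genes and none of the 42, while DESeq2 without the block called 161 genes and limma-voom 0, neither of them with any of the 42. With the block, 11 of the 42 fell and 0 rose, beside 8.01% of all genes that fell and 5.48% that rose. Over all genes the block gave 1189 falls and 813 rises, so 40.6% of calls were rises, a share that became 54.9% under upper-quartile scaling. The estimate was below 0 for 40 of the 42 genes, with a median log2 fold change of -0.23 against 0.00 over all genes tested. On the deposited FPKM (fragments scaled to gene length and depth), tested by limma with the block, only UHRF1 of the 42 passed, although the median was -0.23 there too.

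The groups overlapped for every one of the 42 genes, because control 1 lay below knockdowns 2 and 3 for all but CCNE1, whose levels were nearly equal throughout. Over all genes, 7.38% had every knockdown library below every control and 7.52% had every one above. Pairs 2 and 3 are matched by number only, as the difference between replicates 2 and 3 had a correlation of -0.0013 between groups. Within pairs, 36 of the 42 genes were lower in the knockdown in all 3, against 26.8% of all genes tested. The 6 others were ORC6, GINS3, PRIM1, POLA2, RPA2 and RRM1. The median log2 ratio over the 42 genes was -0.42 in pair 1, -0.13 in pair 2 and -0.17 in pair 3. In replicates 2 and 3 alone, without a block, 21 of the 42 fell and 0 rose, beside 13.7% and 11.7% of all genes. Those 21 included all 11 that fell with the block over the 3 pairs. With the block and without pair 1, 22 of the 42 fell, beside 2213 of all 14836 genes tested. Without pair 2 only LIG1, MCM5, MCM6 and ORC1 fell, beside 625 of 15296 genes. Without pair 3 the count was 11, beside 1110 of 15221 genes. Labels do not say whether the replicates were separate cultures, so these p-values measure only the spread between these libraries.

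**Figure D2:**
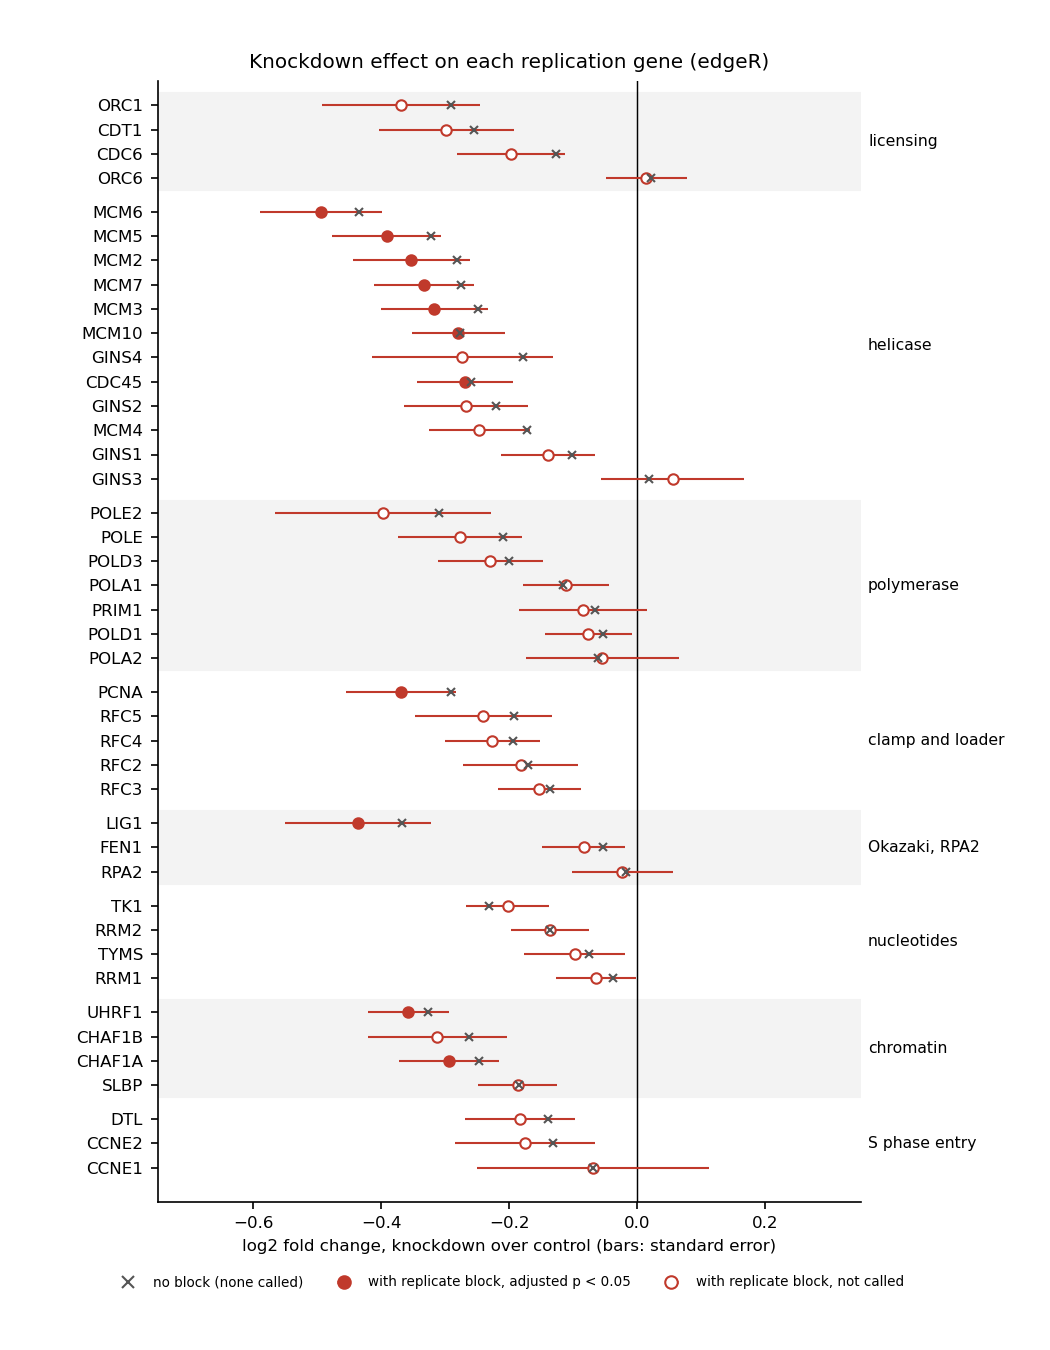
Log2 fold change of knockdown over control for each gene in edgeR, with genes in rows by role. Circles with standard error bars are the fit with the replicate block, filled where the adjusted p was under 0.05 (11 genes), and crosses are the fit without the block, in which none was called. All filled circles lie between -0.27 and -0.49, and 40 of 42 circles lie below 0.

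Of the 4 licensing genes, 0 fell with the block, with a median log2 fold change of -0.25. ORC1, the largest subunit of the origin recognition complex, stood at 13.2, 50.5 and 56.0 CPM in controls 1 to 3 and at 7.31, 47.3 and 43.2 CPM in the knockdowns. Each knockdown library was below its same-numbered control, yet the estimate of -0.37 (SE 0.124) had an edgeR adjusted p of 0.0824. It passed in replicates 2 and 3 alone (-0.24, edgeR adjusted p = 0.0104). CDT1, which brings the helicase to the origin, was at -0.30 (edgeR adjusted p = 0.0958), with ratios of -0.67, -0.18 and -0.08 in pairs 1 to 3. CDC6, the ATPase that helps load the ring, was at -0.20 (edgeR adjusted p = 0.156). ORC6, the smallest origin recognition subunit, stood at 39.1, 98.7 and 96.0 CPM in controls and at 38.4, 100.4 and 98.6 CPM in knockdowns. Its levels were close within each pair (0.01, SE 0.063), and its sign turned to -0.00 on the FPKM scale.

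The helicase genes held 7 of the 11 genes that fell, out of 12 tested, with a median of -0.28. MCM6 (chr2:135839626-135876426), a ring subunit, had the largest estimate of all 42 genes. It stood at 67.9, 141 and 136 CPM in controls and at 38.7, 105 and 111 CPM in knockdowns. The knockdown value was lower in every pair, but control 1 lay below knockdowns 2 and 3. MCM6 fell by 0.49 with the block (SE 0.095, edgeR adjusted p = 0.0129). Without the block the estimate was -0.43 with a standard error of 0.47.

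MCM5 (chr22:35400063-35425430) stood at 157, 387 and 387 CPM in controls and at 98.4, 324 and 322 CPM in knockdowns, and fell by 0.39 (SE 0.086, edgeR adjusted p = 0.0207). MCM2 (chr3:127598223-127622436) stood at 68.5, 172 and 181 CPM and at 43.1, 150 and 153 CPM, and fell by 0.35 (SE 0.092, edgeR adjusted p = 0.0372). These ring subunits were lowest in library 1 of each group and lower in the knockdown of each pair. MCM7 (chr7:100092728-100101940), at 130, 331 and 342 CPM against 87.9, 292 and 283 CPM, fell by 0.33 (SE 0.078, edgeR adjusted p = 0.0260). MCM3 (chr6:52264009-52284881), at 94.2, 261 and 271 CPM against 62.9, 229 and 234 CPM, fell by 0.32 (SE 0.083, edgeR adjusted p = 0.0377). MCM4 had the highest counts and the highest FPKM of the ring, at 213, 696 and 689 CPM in controls and 151, 635 and 631 CPM in knockdowns. It had the same order of libraries but a smaller estimate, -0.25 (SE 0.079, edgeR adjusted p = 0.0725), and it passed in replicates 2 and 3 alone (-0.13). Of the MCM2 exons, 23.6% of bases overlap another annotated gene, so its counts depend on how shared reads were assigned.

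Per gene length, the 6 ring subunits summed to 135, 371 and 375 FPKM in controls and to 86.9, 320 and 320 FPKM in knockdowns. Their products enter the ring in equal numbers, but their mRNA levels differed. MCM4 made up 22.2% to 28.4% of the sum over the 6 libraries, MCM7 20.1% to 22.1% and MCM3 18.7% to 19.99%. MCM5 held 13.6% to 15.5%, MCM2 9.50% to 10.1% and MCM6 7.97% to 12.0%. MCM4 had its smallest share and MCM6 its largest in the library 1 samples, while within each pair MCM6 held a smaller share in the knockdown than in the control.

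**Figure D3:**
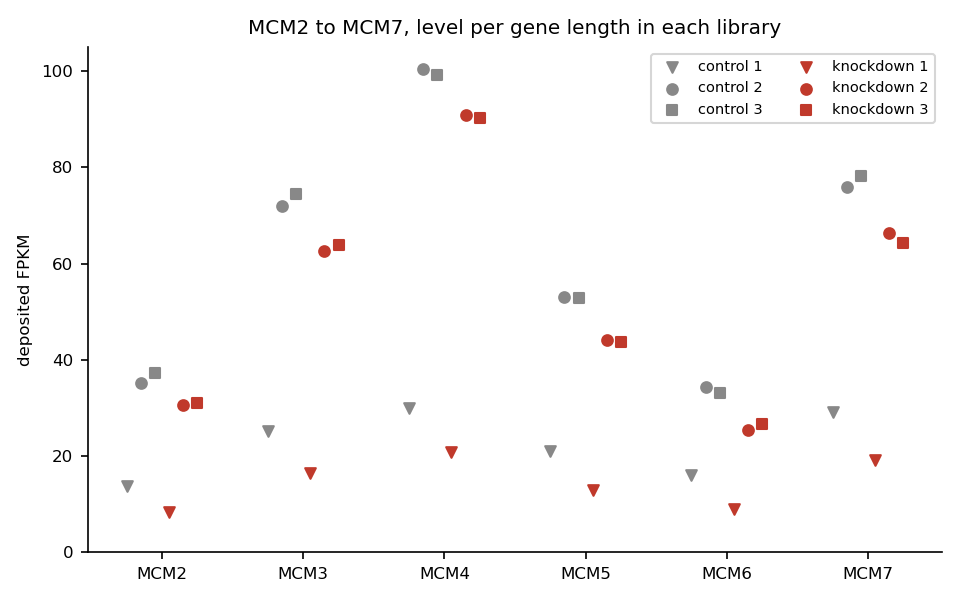
Deposited FPKM of the 6 ring subunits in each library, on a linear axis from 0, with grey for control, red for knockdown and the library number by symbol. The triangles of library 1 lie far below the other symbols for each subunit, and in each numbered pair the red symbol lies below the grey one.

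Among the helicase cofactors, MCM10 (chr10:13161554-13211104), which helps switch the helicase on, stood at 14.2, 80.1 and 79.7 CPM in controls and at 11.6, 63.4 and 68.5 CPM in knockdowns. It fell by 0.28 (SE 0.072, edgeR adjusted p = 0.0364), and its ratios in the 3 pairs were close together, at -0.29, -0.34 and -0.22. CDC45 (chr22:19479459-19520612), which binds the ring to form the active helicase, stood at 16.1, 62.7 and 60.7 CPM against 12.8, 52.7 and 51.0 CPM. It fell by 0.27 (SE 0.075, edgeR adjusted p = 0.0463), with pair ratios of -0.33, -0.25 and -0.25. None of the 4 GINS subunits fell. GINS2 was at -0.27 (edgeR adjusted p = 0.101), GINS4 at -0.27 (0.229) and GINS1 at -0.14 (0.233). GINS3 stood at 6.85, 30.4 and 31.9 CPM in controls and at 8.57, 32.9 and 28.5 CPM in knockdowns, higher in 2 pairs and lower in the third. Its estimate of 0.06 (SE 0.112) was the highest of the 42 and turned to -0.02 without pair 1. Exons of GINS4 and GINS3 overlap other genes over 23.6% and 10.9% of their bases.

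None of the 7 polymerase and primase genes fell, and their median was -0.11, with all 7 estimates below 0. POLE2, an accessory subunit of polymerase epsilon, stood at 10.01, 21.9 and 23.5 CPM in controls and at 4.65, 20.7 and 19.3 CPM in knockdowns. The gap was widest in pair 1 (-1.10, against -0.08 and -0.28), and the estimate of -0.40 (SE 0.169) had an edgeR adjusted p of 0.151. POLE, the catalytic subunit of the same enzyme, was at -0.28 (edgeR adjusted p = 0.0924). For polymerase delta, the accessory POLD3 was at -0.23 (0.0976) and the catalytic POLD1 at -0.08 (0.493). POLA1, the catalytic subunit of polymerase alpha, was at -0.11 and the primase PRIM1 at -0.08. POLA2, the accessory subunit of polymerase alpha, stood at 8.36, 16.0 and 17.2 CPM in controls and at 8.57, 16.8 and 14.5 CPM in knockdowns. It was slightly higher in 2 pairs and lower in pair 3, for an estimate of -0.05 (SE 0.119) that turned to 0.05 without pair 3. Over 35.1% of its exon bases POLA2 overlaps another gene, and PRIM1 does over 21.6%.

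In the clamp and clamp loader, 1 of 5 genes fell, with a median of -0.23. PCNA (chr20:5114953-5126626), the ring that tethers polymerases to DNA, had the highest level per length of the 42 genes, at 48.6, 177 and 171 FPKM in controls and 30.2, 145 and 146 FPKM in knockdowns. In CPM it stood at 72.9, 258 and 251 in controls and at 46.3, 214 and 215 in knockdowns. PCNA fell by 0.37 (SE 0.086, edgeR adjusted p = 0.0255) and was lower in each pair. The loader subunits were at -0.24 (RFC5, edgeR adjusted p = 0.167), -0.23 (RFC4, 0.0778), -0.18 (RFC2, 0.210) and -0.15 (RFC3, 0.149). RFC3 had the smallest estimate, with 38.0, 135 and 135 CPM in controls and 32.7, 127 and 119 CPM in knockdowns. The annotation holds pseudogene copies of PCNA, RFC5 and RFC3, and of FEN1, RPA2, RRM2 and TYMS, which could take up shared reads. RFC5 exons also overlap other genes over 10.6% of their bases.

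LIG1 (chr19:48115445-48170603), the ligase that joins Okazaki fragments, was the gene that fell among the 3 of its group. It stood at 34.5, 72.2 and 76.4 CPM in controls and at 19.1, 63.8 and 59.0 CPM in knockdowns, lower in each pair. The fall was 0.44 (SE 0.114, edgeR adjusted p = 0.0374), the next largest after MCM6 among those that passed. FEN1, the nuclease that trims the flaps before ligation, was at -0.08 (SE 0.064, edgeR adjusted p = 0.422). RPA2, a subunit of the single-strand binding protein, stood at 33.4, 60.8 and 62.1 CPM against 32.5, 66.5 and 55.4 CPM. Its pair ratios had mixed signs, and the estimate of -0.02 (SE 0.079) turned to 0.02 under upper-quartile scaling.

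Among the 4 nucleotide supply genes 0 fell, and the median was -0.12. TK1, thymidine kinase, stood at 59.7, 226 and 230 CPM in controls and at 56.2, 196 and 187 CPM in knockdowns. Unlike most of the set it differed least in pair 1 (-0.09, against -0.20 and -0.30). Its estimate of -0.20 (SE 0.065) had an edgeR adjusted p of 0.0738, and it fell in replicates 2 and 3 alone (-0.25, edgeR adjusted p = 1.20e-06). RRM2, the small subunit of ribonucleotide reductase, was at -0.14 (edgeR adjusted p = 0.168), and it also fell in replicates 2 and 3 alone (-0.14, 0.0131). The large subunit RRM1 stood at 111, 261 and 256 CPM in controls and 98.1, 257 and 257 CPM in knockdowns, for an estimate of -0.06 (SE 0.063). TYMS, thymidylate synthase, was at -0.10, and 46.6% of its exon bases overlap the neighbouring ENOSF1 and TYMSOS. For RRM2, 20.2% of exon bases overlap another gene.

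In chromatin at the fork, 2 of 4 genes fell, and the median of -0.30 was the lowest of the 8 groups. UHRF1 (chr19:4903080-4962154), which reads hemimethylated DNA behind the fork and recruits the methyltransferase DNMT1, stood at 53.5, 269 and 281 CPM in controls and 38.7, 217 and 226 CPM in knockdowns. It was lower in each pair (-0.47, -0.31 and -0.32) and fell by 0.36, with the smallest p of the 42 (SE 0.063, edgeR adjusted p = 0.00917). CHAF1A (chr19:4402662-4445018), the large subunit of the histone chaperone CAF-1, stood at 55.9, 136 and 140 CPM against 39.1, 119 and 121 CPM and fell by 0.29 (SE 0.078, edgeR adjusted p = 0.0403). Its partner CHAF1B was at -0.31, close to CHAF1A in size, but with a larger error (SE 0.109, edgeR adjusted p = 0.0919). SLBP, which binds the stem-loop of histone mRNAs, stood at 52.7, 108 and 110 CPM against 45.9, 96.0 and 95.6 CPM. It differed alike in the 3 pairs (-0.20, -0.16 and -0.20) but missed the threshold (-0.19, edgeR adjusted p = 0.0807).

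Of the 3 genes of S phase entry and CDT1 turnover, 0 fell, with a median of -0.17. DTL, the receptor through which the CRL4 ubiquitin ligase marks CDT1 for breakdown, stood at 35.4, 80.8 and 87.8 CPM in controls and 26.3, 80.6 and 78.1 CPM in knockdowns (-0.18, edgeR adjusted p = 0.192). CCNE1 and CCNE2 code for the cyclins that drive CDK2 at S phase entry. CCNE2 was at -0.17 (edgeR adjusted p = 0.318), and 37.1% of its exon bases overlap other genes, INTS8 among them. CCNE1 was the lowest of the 42 per length and stood at 4.80, 4.46 and 4.44 CPM against 4.59, 4.36 and 4.11 CPM. Its estimate of -0.07 had a standard error of 0.181, the widest of the 42, from 60 to 72 counts per library.

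Of the helicase, polymerase, licensing and nucleotide supply groups, the helicase had the lowest median in replicates 2 and 3 alone, at -0.21, against -0.12 for polymerases, -0.11 for licensing and -0.10 for nucleotide supply. In pair 1 the helicase (-0.57) and licensing (-0.58) medians were alike, and those of polymerases (-0.23) and nucleotide supply (-0.16) were nearer to 0. Over the 3 pairs with the block, 7 of 12 helicase genes fell and 0 of 15 in the other 3 groups together. The share of all genes that fell was 8.01%, and 0 of 15 lies near it. In licensing, ORC1 and CDT1 missed the threshold at edgeR adjusted p of 0.0824 and 0.0958. The medians of that fit were -0.28 for helicase, -0.25 for licensing, -0.12 for nucleotide supply and -0.11 for polymerases. At an unadjusted edgeR p under 0.05, 9 of 12 helicase and 3 of 4 licensing genes were lower. So were 3 of 7 polymerase and 1 of 4 nucleotide supply genes, beside 2397 of all 14844. No test of the difference between groups was made, since each group holds few genes chosen by function.

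The ratio of knockdown to control was not the same in all pairs. The interaction of group and replicate 1 was called for 15 of the 42 genes, in each case with a lower ratio in pair 1. Of all 14844 genes tested, 13.0% were called either way, 1181 lower and 751 higher. Pair 1 is 1 library per group, so the spread behind this test came only from libraries 2 and 3. A different knockdown effect in pair 1 and a deviation of either of its libraries cannot be told apart. The 15 genes were all 6 ring subunits, PCNA, LIG1, CHAF1A, ORC1, CDT1, CDC6, GINS4, POLE2 and POLE. The MCM6 ratios were -0.81 (pair 1), -0.42 (pair 2) and -0.29 (pair 3). For MCM10, CDC45 and UHRF1, which also fell, the interaction was -0.01 (SE 0.17), -0.08 (SE 0.17) and -0.15 (SE 0.10) and was not called. NELFCD had its largest ratio in the same pair, at -1.66 against -1.24 and -1.05.

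**Figure D4:**
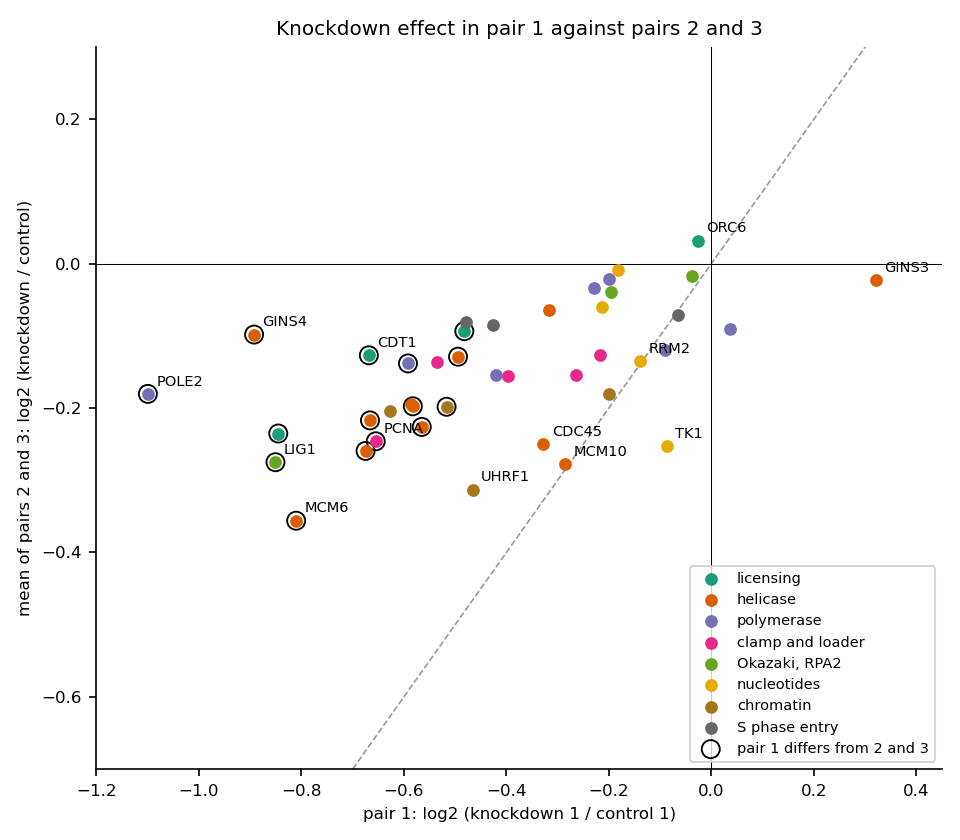
Log2 ratio of knockdown to control in pair 1 (x axis) against the mean of pairs 2 and 3 (y axis) for the 42 genes, coloured by role, with the dashed line marking equal values and open circles the 15 genes with a called interaction. Most points lie left of the line, with POLE2 at -1.10 and GINS4 at -0.89 in pair 1, while MCM10 and RRM2 lie on or near it.

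Other replication genes outside the set, 63 in 4 lists, were nearer to 0. With the block 4 of the 63 fell and 2 rose, which is no larger a share than the 8.01% and 5.48% of all genes, with a median of -0.08 and 44 estimates below 0. In licensing and firing, 0 of 19 were called. At an unadjusted p under 0.05, 7 of the 19 were lower and 0 higher, where 2397 of all 14844 genes were lower and 2126 higher. TOPBP1, which helps to activate the helicase and was the most abundant of them in CPM, was at -0.19 (edgeR adjusted p = 0.0767). At the fork, 2 of 21 fell, the replication checkpoint proteins TIMELESS (-0.37, edgeR adjusted p = 0.0305) and CLSPN (-0.32, 0.0397). RNASEH2C, a subunit of the enzyme that removes ribonucleotides from DNA, rose by 0.36 (0.0400), and TOP2A, the most abundant in CPM, was at -0.15 (0.108). In chromatin, 1 of 10 fell, RBBP4 (-0.31, edgeR adjusted p = 0.0473), which is a subunit of CAF-1 with CHAF1A and CHAF1B. DDB1, the adaptor that joins DTL to the CRL4 ligase, rose by 0.20 (edgeR adjusted p = 0.0436), and CUL4A, the scaffold of that ligase, was at 0.17 (0.0836).

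In nucleotide supply outside the set, 1 of 13 fell. RRM2B, an alternative small subunit of ribonucleotide reductase known as a p53 target, stood at 80.8, 57.9 and 52.7 CPM in controls and at 44.1, 38.2 and 35.8 CPM in knockdowns. Unlike 41 of the 42 genes, all but CCNE1, it was higher in library 1 than in libraries 2 and 3, and its groups did not overlap. RRM2B fell by 0.68 (SE 0.083, edgeR adjusted p = 0.00220), while RRM2 and RRM1 were not called. IMPDH2, the gene of highest CPM in that list, was at -0.15 (edgeR adjusted p = 0.133). Of 20 mitosis and G2/M genes, 3 fell, beside 8.01% of all genes. These were the kinesin KIF11 (-0.55, edgeR adjusted p = 0.00266) and the kinases AURKB (-0.31, 0.0356) and CDK1 (-0.27, 0.0353). Their list had a median of -0.07, against -0.23 for the 42 replication genes. Of the 20, 18 had an estimate below 0. At an unadjusted edgeR p under 0.05, 7 were lower and 1 higher, beside 2397 and 2126 of all 14844. Whether a changed share of cycling cells had a part in the falls was not tested.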

How the data were processed

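RNA was extracted with TRNzol Universal Reagent or the Quick-RNA MiniPrep kit and the SMARTER mRNA-seq kit was used for the libraries, per the labels' protocols. The deposited table gives raw counts per gene, and the submitters' processing notes name the build hg38. Which aligner and counter were used, and whether strand was, is not given in the sources used here. The deposited FPKM values, which the authors scaled by gene length and depth, equal the deposited count over the gene length and 1 constant per library, which was 0.982 to 1.07 times the library's summed counts. Gene coordinates and lengths matched GENCODE release 29 for all 42 genes.

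Counts were tested with edgeR 4.0.16 (R 4.3.3) by quasi-likelihood F-tests after filterByExpr, which left 14844 genes and all 42 members. Scaling was by TMM (factors 0.989 to 1.03), and p-values were adjusted by Benjamini-Hochberg over all genes tested, with a threshold of 0.05. CPM used TMM-scaled library sizes, and log2 ratios within pairs used counts plus 0.5. Depth was 14306733 to 16656630 counts per library.

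The design chosen first had no block. Deviations from the group mean, correlated over genes between the control and knockdown library of a number, gave 0.821 for number 1, 0.591 for number 2 and 0.578 for number 3. All exceed 0.1, so the numbers were taken to pair the libraries. This came from the data, not the labels, and rested on number 1, since the difference between replicates 2 and 3 had a correlation of -0.0013 between groups. edgeR's common coefficient of variation between replicates was 32.6% without and 8.17% with the block, at 4 and 2 residual degrees of freedom. Alternatives were 2 other scalings, 2 other filters, DESeq2 1.42.0, limma-voom (limma 3.58.1), limma on log2 of the deposited FPKM plus 1 or 0.1, and left-out libraries or pairs.

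The 42 members, the 9 gene lists and the tests were chosen with earlier results of these data known. All members were named by group, with values in each library for those called with the block, for the largest and smallest change in each group and for MCM2 to MCM7. Of each list of other replication genes, the called members with the 3 largest changes and the uncalled member of highest mean CPM were named, along with the 4 NELF subunits. Mitosis genes outside that rule were named after their values were seen. Promoters were taken for up to 4 called genes with the most E2F matches and with exon-free bases.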

Additional observations from a re-analysis of the deposited data

Results flagged for a closer look

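For 15 genes edgeR's interaction test called a lower log2 ratio in pair 1 than in pairs 2 and 3 (adjusted p under 0.05). Pair 1 is 1 library per group, so a different knockdown effect and a deviation of either library cannot be told apart. Among the helicase ring subunits the difference was -0.45 for MCM6, -0.42 for MCM5, -0.45 for MCM2, -0.34 for MCM7, -0.38 for MCM3 and -0.37 for MCM4. In licensing it was -0.61 for ORC1, -0.54 for CDT1 and -0.39 for CDC6. The widest differences were those of POLE2 (-0.92) and GINS4 (-0.80), while POLE was at -0.46. PCNA was at -0.41, LIG1 at -0.58 and CHAF1A at -0.32. Pair 1 was also the pair with the lowest level of these genes and with the largest ratio of NELFCD, and the part of either in the difference was not tested.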

How the results depend on the processing

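Without a block, edgeR's count of genes called was 0, and it became 161 with DESeq2, 2002 with the replicate block and 3758 in replicates 2 and 3 alone. The members called went from 0 to 11 and 21 in those last fits. Leaving out 1 library moved the median of the members without the block from -0.533 (without control 1) to 0.180 (without knockdown 1). It was 0.0208 without control 2 and 0.0282 without control 3, since libraries 1 then weighed unequally in the groups.

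With the paired fit, 2002 genes were called in the main setting, 655 and 775 by limma on log2(FPKM + 1) and log2(FPKM + 0.1), 0 without the block and 3758 in replicates 2 and 3 alone. Leaving out a pair gave 932 (without pair 2) to 4090 (without pair 1). Members called were 11 in the main setting, 1 in each FPKM setting, 0 without the block and 21 in replicates 2 and 3 alone. With no filter on low counts 19 members fell, beside 1770 of 32102 genes. With a mean of at least 5 CPM, 7 of 41 members fell, beside 1040 of 10729 genes. Leaving out a pair gave 4 (without pair 2) to 22 (without pair 1). DESeq2 and upper-quartile scaling called 8 members each, all lower, beside 912 of 13405 and 986 of 14844 genes that fell. For limma-voom it was 11, beside 1270 of 14844 genes. The median of the members stayed between -0.276 and -0.138 in every alternative run with the block, and was -0.137 in replicates 2 and 3 alone. UHRF1 passed in 10 of 11 paired alternatives, MCM5 and MCM6 in 9, and MCM7, PCNA and LIG1 in 8. MCM10, CDC45 and CHAF1A passed in 5. The causes were not tested.

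The interaction with replicate 1 was called for 1932 genes and 15 members, and for 598 and 9 with DESeq2, 363 and 5 on log2(FPKM + 1) and 391 and 8 on log2(FPKM + 0.1). The count of 41 members lower in replicate 1 was the same in every alternative run. A few members near 0 changed sign. RPA2 was at 0.0227 under upper-quartile scaling and ORC6 at -0.0046 and -0.0059 in the FPKM settings. GINS3 was at -0.0190 in replicates 2 and 3 alone. With a pair left out, GINS3 ranged from -0.0227 (without pair 1) to 0.192, ORC6 from -0.0045 (without pair 3) to 0.0305, POLA2 from -0.123 to 0.0494 (without pair 3) and RPA2 from -0.107 to 0.0445 (without pair 3).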
